A study of Mus musculus with 15 samples.

Results

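This account covers 10 genes of bone morphogenetic protein (BMP) and transforming growth factor beta (TGF-beta) signalling: the ligands Bmp2, Bmp4, Bmp7 and Tgfb1, the secreted BMP antagonist Grem1, and the response genes Id1, Id2, Id3, Smad6 and Smad7. The 10 genes were chosen with earlier results of these data known. Their probes were taken by symbol alone, as every probe whose gene name in the scanner files is one of these symbols. This gave 13 of the 41174 probes on the array, with a pair of probes each for Bmp7, Id1 and Id2 and 1 probe for each other gene. Of the 10 genes, 8 had a probe bright enough to test, among 21301 genes tested in all.

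The samples were colon tissue of 8 female Swiss Webster mice, an outbred laboratory stock, 2 mice in each of 4 groups: 5-ASA polypoid, untreated polypoid, 5-ASA inflamed and untreated inflamed. All groups carried the same background treatment. Mice, 7 weeks old at the start, were injected with the colon carcinogen azoxymethane (AOM) at 7.4 mg/kg, and from 9 weeks of age they drank 4% dextran sulfate sodium (DSS), which injures the colon lining, in 3 cycles, and they were killed at 18 weeks. A cycle is described as 7 days of DSS and 21 days of water, and 3 full cycles from that age would run past 18 weeks, so the exact schedule is not known here. The 5-ASA groups also received 75 mg/kg of mesalamine (5-aminosalicylic acid, used against bowel inflammation), and the untreated groups received vehicle. No group without AOM and DSS was analysed here, so each value compares polyps with inflamed mucosa, or drug with vehicle, and none compares with healthy colon.

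Tissue areas were cut by laser capture, a microscope-guided dissection, and their RNA was amplified in 2 rounds and hybridised to 15 two-colour oligonucleotide arrays beside a universal mouse reference RNA. Each level below is log2 of sample over reference, 1 value per mouse, so 0 means a level equal to the reference and 1 a level of 2-fold over it. Per array, the median sample signal was 148 to 255 scanner units and the local background 41 to 63 units, and 57.3% to 90.8% of spots were well above background. All 10 epithelial markers passed the brightness filter, and their mean was 2.40 to 3.16 in polypoid samples and 2.97 to 3.36 in inflamed samples. In captured tissue of this kind, fewer cells of a type and less RNA per cell cannot be told apart.

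BMPs and TGF-beta are secreted dimers that bring together type I and type II receptor kinases at the cell surface. The receptors phosphorylate Smad proteins (Smad1, Smad5 and Smad9 for BMPs, Smad2 and Smad3 for TGF-beta and activins), which join Smad4 and enter the nucleus. The Id genes encode helix-loop-helix proteins that keep basic helix-loop-helix factors from DNA and are standard direct targets of BMP, while Smad6 and Smad7 encode inhibitory Smads that feed back on the receptors. In the intestine, BMP signalling is strongest toward the differentiated surface, and antagonists such as gremlin 1, made by mesenchymal cells under the crypts, keep it low around the stem cells.

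RefSeq promoter windows (assembly GRCm38.p6) were searched for 6 of the 10 genes, namely Grem1, Id3, Tgfb1, Smad6, Id2 and Bmp4. No window was held for Bmp2, Bmp7 and Id1, and Smad7 was left out of the search. The 250 bases before the start site are shown for Id2 and Id3, as response genes, and for Grem1, the antagonist. The windows lie at chr12:25096093-25096342 on the minus strand for Id2, chr4:136143572-136143821 on the plus strand for Id3 and chr2:113758649-113758898 on the minus strand for Grem1. Each is written 5′ to 3′ toward the start site, and capitals mark every match, on either strand, to the letters searched: GGCGCC, a GC-rich Smad1 and Smad5 element, GTCTAGAC, a palindromic Smad element, CAGAC, the short Smad box, and CACGTG, an E-box. On the other strand CAGAC reads GTCTG.
Id2: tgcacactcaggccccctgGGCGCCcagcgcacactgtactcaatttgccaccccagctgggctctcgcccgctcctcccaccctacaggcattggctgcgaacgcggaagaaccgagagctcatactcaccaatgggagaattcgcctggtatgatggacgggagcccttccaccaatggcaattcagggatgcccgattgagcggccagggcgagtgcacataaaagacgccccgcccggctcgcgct
Id3: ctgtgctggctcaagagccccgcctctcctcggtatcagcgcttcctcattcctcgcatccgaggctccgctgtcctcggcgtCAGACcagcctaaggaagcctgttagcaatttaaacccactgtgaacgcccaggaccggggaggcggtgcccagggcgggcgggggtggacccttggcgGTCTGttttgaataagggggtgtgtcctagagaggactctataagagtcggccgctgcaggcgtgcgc
Grem1: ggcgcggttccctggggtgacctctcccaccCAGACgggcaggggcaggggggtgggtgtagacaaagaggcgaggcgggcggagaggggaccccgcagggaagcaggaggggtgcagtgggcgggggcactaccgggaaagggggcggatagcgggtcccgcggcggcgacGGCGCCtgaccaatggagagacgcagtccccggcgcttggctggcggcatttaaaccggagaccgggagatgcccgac
Id2 held 1 GGCGCC, with its first base 231 bases before the start. Id3 held CAGAC on each strand, 167 and 68 bases before the start. Grem1 held 1 CAGAC at 219 and 1 GGCGCC at 78 bases before the start. Of the windows not shown, Bmp4 held 1 CACGTG at 188 bases, and those of Smad6 and Tgfb1 held none of the letters searched. Among 32851 promoter windows of the same length, 9.59% held GGCGCC, 42.2% CAGAC, 6.02% CACGTG and 0.167% GTCTAGAC. These matches describe letters in a window and were not tested for any role.

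The first comparison set polypoid against inflamed tissue over the 2 arms and asks what distinguishes the polyps from the inflamed lining that carried the same injury. Of the 8 genes measured, 1 passed the test: Bmp7, which rose in polyps. The others did not pass, with 3 higher on average (Id2, Smad7 and Id1) and 4 lower (Grem1, Bmp4, Smad6 and Id3). Across all 21301 genes 5.94% were called, at a Benjamini-Hochberg adjusted p under 0.05 in limma, so a single call among 8 genes is close to that background. The median difference of the 8 genes was 0.27 on the log2 scale, against -0.02 over all genes tested.

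**Figure D1:**
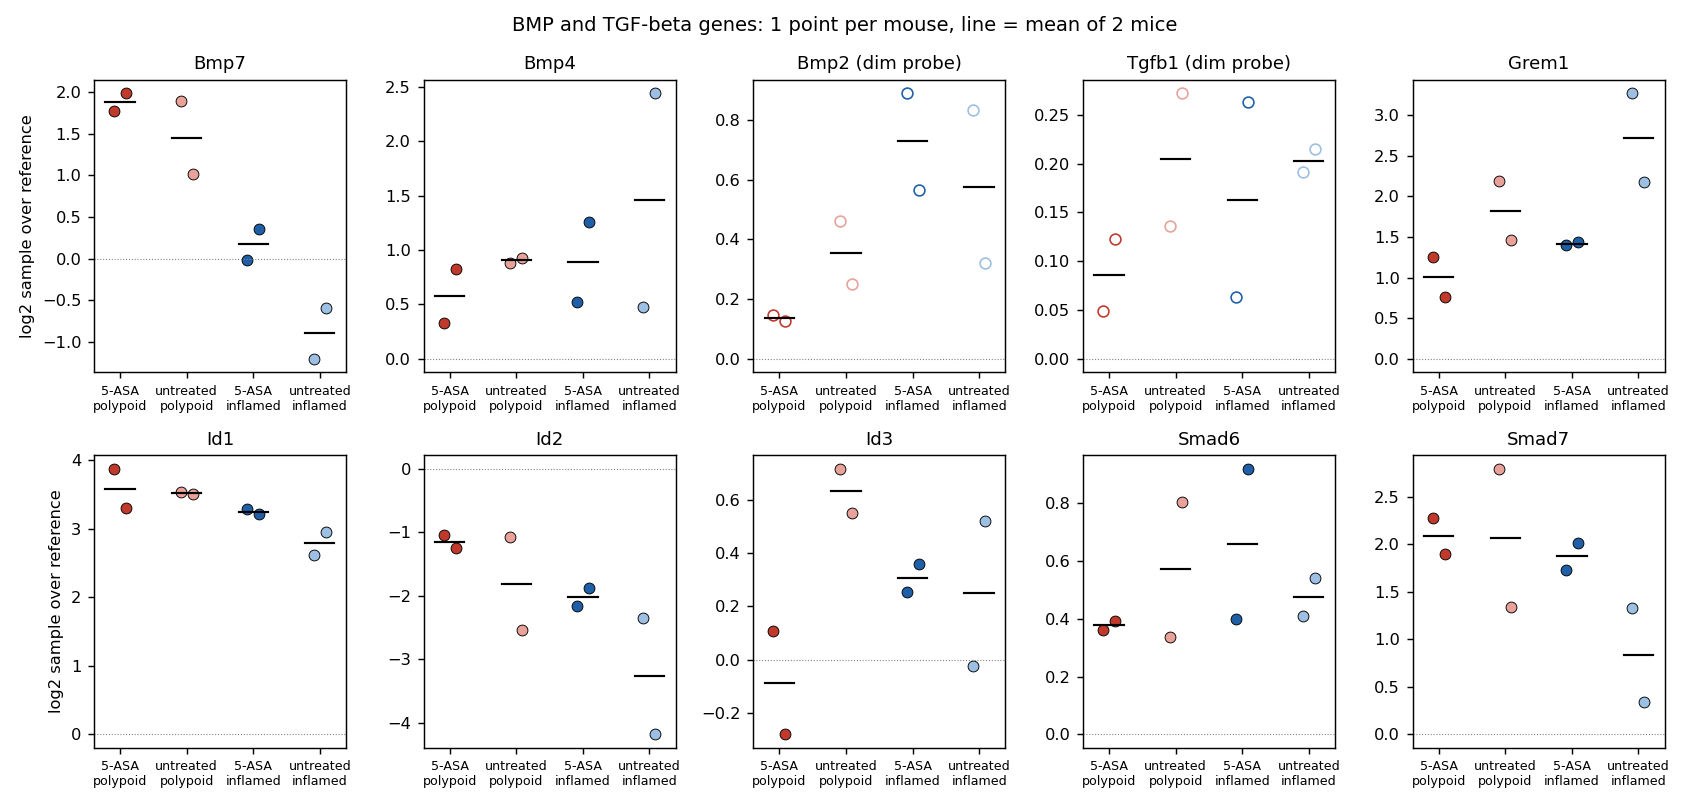
Log2 of sample over reference for each of the 10 genes, 1 point per mouse and a line at the mean of 2 mice, with polypoid groups in red and inflamed groups in blue. Bmp7 sits between 1.01 and 1.99 in the 4 polypoid samples and between -1.20 and 0.36 in the 4 inflamed samples. The scale of each panel differs, and open points mark the 2 genes whose probe was too dim to test.

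Bmp7, a BMP ligand, stood at 1.77 and 1.99 in 5-ASA polyps and at 1.89 and 1.01 in untreated polyps, against -0.02 and 0.36 in 5-ASA inflamed tissue and -1.20 and -0.59 in untreated inflamed tissue. All 4 polypoid samples lay above all 4 inflamed samples, and the untreated inflamed mice were the lowest. The mean was 1.67 ± 0.44 in polypoid and -0.36 ± 0.68 in inflamed samples (SD, n = 4 each). The difference was 2.03 ± 0.25 (SE), a 4.08-fold higher level, with a 95% interval of 1.43 to 2.63 and an adjusted p of 0.013 in limma. Polypoid and inflamed samples failed to overlap for 16.3% of all genes, and among the 8 genes here only for Bmp7 and Id1.

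A second Bmp7 probe also separated the tissues. It read 1.63 and 1.37 in 5-ASA polyps and 1.88 and 1.30 in untreated polyps, against 0.06 and 0.52 in 5-ASA inflamed tissue and -0.67 and -0.38 in untreated inflamed tissue. In a fit of all 30166 kept probes its difference was 1.66 ± 0.18 (SE), with an adjusted p of 0.012 in limma. Both probes were well above background on all 15 arrays, and over the 7 mice with swapped dyes the dye difference of a probe varied by no more than 0.15 around its mean.

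Bmp7 did not pass in either arm alone. Within 5-ASA mice the difference was 1.71 ± 0.35 (SE), with an adjusted p of 0.062 in limma, where 3.06% of all genes were called. Within untreated mice it was 2.35 ± 0.35 (SE), with an adjusted p of 0.085, where 0.164% of genes were called. The arrays were scanned in 4 sessions. In 5-ASA mice the polyps were scanned in sessions 2 and 3 and the inflamed samples in sessions 1 and 4. Tissue and session thus cannot be told apart in that arm. Session 3 alone held both tissues. Among its untreated mice, 1 per tissue, the polyp exceeded the inflamed sample by 1.61. With session as a block the difference was 1.50 and the adjusted p was 0.36 in limma, and no gene on the array was called. That fit spends most of its degrees of freedom on groups and sessions, so it has little power to call any gene. The part of session in the Bmp7 difference was not tested. The call was also lost without treated inflamed replicate 1 (1.94, adjusted p = 0.073) and without treated polypoid replicate 2 (1.98, adjusted p = 0.051).

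Markers of other cell types moved between the same tissues. The mean of 8 neutrophil markers was 1.64 to 2.62 in polypoid samples and 0.23 to 0.51 in inflamed samples, and 4 of the 8 rose. The mean of 10 smooth muscle markers was 0.62 to 1.04 in polypoid samples and 1.21 to 3.38 in inflamed samples, and 4 of the 10 fell. Among the other lists, 1 of 8 B and plasma cell markers, 1 of 9 enteric neuron and glia markers and 1 of 10 epithelial markers fell, 1 of 10 fibroblast markers rose, and none of the T cell, macrophage or endothelial markers passed. The part of these shifts in the Bmp7 difference was not tested.

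The other ligands gave no call. Bmp4, a BMP ligand made mainly by mesenchymal cells in the gut, was at 0.33 and 0.82 in 5-ASA polyps and 0.88 and 0.93 in untreated polyps, against 0.53 and 1.26 in 5-ASA inflamed tissue and 0.48 and 2.45 in untreated inflamed tissue. The groups overlapped, and untreated inflamed replicate 2 alone exceeded 1.26. The difference was -0.44 ± 0.44 (SE), with a 95% interval of -1.51 to 0.64 and an adjusted p of 0.61. Without that mouse it was 0.05, so its direction rests on 1 sample.

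Bmp2, another BMP ligand, and Tgfb1, the founding TGF-beta ligand, had only dim probes. Of the arrays, 4 of 8 polypoid and 5 of 7 inflamed had the Bmp2 probe well above background, with signals of 76.2 to 168 scanner units. For the Tgfb1 probe these were 5 of 8 polypoid and 4 of 7 inflamed arrays, with signals of 86.1 to 152 units. No group had all its arrays well above background for either gene, so neither entered the fit and no direction is given. The low signal bounds the measurement on this probe, and a change in either gene was not detectable here.

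Grem1, gremlin 1, a secreted protein that binds BMP2, BMP4 and BMP7 and keeps them from their receptors, was at 1.25 and 0.76 in 5-ASA polyps and 2.18 and 1.47 in untreated polyps, against 1.40 and 1.44 in 5-ASA inflamed tissue and 3.27 and 2.18 in untreated inflamed tissue. The tissues overlapped, with the highest level in an untreated inflamed mouse. The difference was -0.66 ± 0.29 (SE), with a 95% interval of -1.37 to 0.06 and an adjusted p of 0.25 in limma. The sign was the opposite of that of Bmp7. Over the 8 mice, which share the reference and fall into 4 groups, Pearson's r between Grem1 and Bmp7 was -0.68.

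Of the Id genes, Id1 had the highest level over reference of all 8 genes, with 3.88 and 3.30 in 5-ASA polyps and 3.54 and 3.52 in untreated polyps, against 3.29 and 3.21 in 5-ASA inflamed tissue and 2.62 and 2.96 in untreated inflamed tissue. Every polypoid sample lay above every inflamed one, the nearest being 3.30 and 3.29. The difference was 0.54 ± 0.16 (SE), with a 95% interval of 0.15 to 0.92 and an adjusted p of 0.11. The probe was saturated on 2 of 4 arrays in each polypoid group and on none of the 7 inflamed arrays, which caps the polypoid readings. With the deposited value table in place of the values computed here the difference was 0.70 and passed, with an adjusted p of 0.042 in limma. Over 20 alternatives the Id1 difference ran from 0.12 to 0.70, and the deposited table alone gave a call.

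Id2 was the lowest of the 8 genes relative to the reference. Its brighter probe read -1.04 and -1.25 in 5-ASA polyps and -1.08 and -2.54 in untreated polyps, against -2.16 and -1.88 in 5-ASA inflamed tissue and -2.35 and -4.18 in untreated inflamed tissue. The tissues overlapped through untreated polypoid replicate 2. The difference was 1.17 ± 0.48 (SE), with a 95% interval of -0.01 to 2.35 and an adjusted p of 0.22. The other Id2 probe read -0.71 and -0.56 in 5-ASA polyps and -0.57 and -0.51 in untreated polyps, against -1.41 and -0.77 in 5-ASA inflamed tissue and -1.52 and -1.73 in untreated inflamed tissue. On that probe the tissues did not overlap, and the difference was 0.77 ± 0.16 (SE), with an adjusted p of 0.053. The untreated mouse that reached -2.54 on the brighter probe read -0.51 on the other, so the probes disagree there. For each Id2 probe 1 Cy3 spot, in untreated polypoid replicate 1, was left out as an outlier.

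Id3 was at 0.11 and -0.28 in 5-ASA polyps and 0.72 and 0.55 in untreated polyps, against 0.26 and 0.36 in 5-ASA inflamed tissue and -0.02 and 0.52 in untreated inflamed tissue. The difference was -0.005 ± 0.16 (SE), with a 95% interval of -0.40 to 0.39, and its sign turned under 5 alternatives. In polyps alone the pair of 5-ASA mice lay below the pair of untreated mice. That difference, -0.72 ± 0.23 (SE), did not pass, with an adjusted p of 0.61 in limma. How many other genes separate 2 mice from 2 in this way was not counted.

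**Figure D2:**
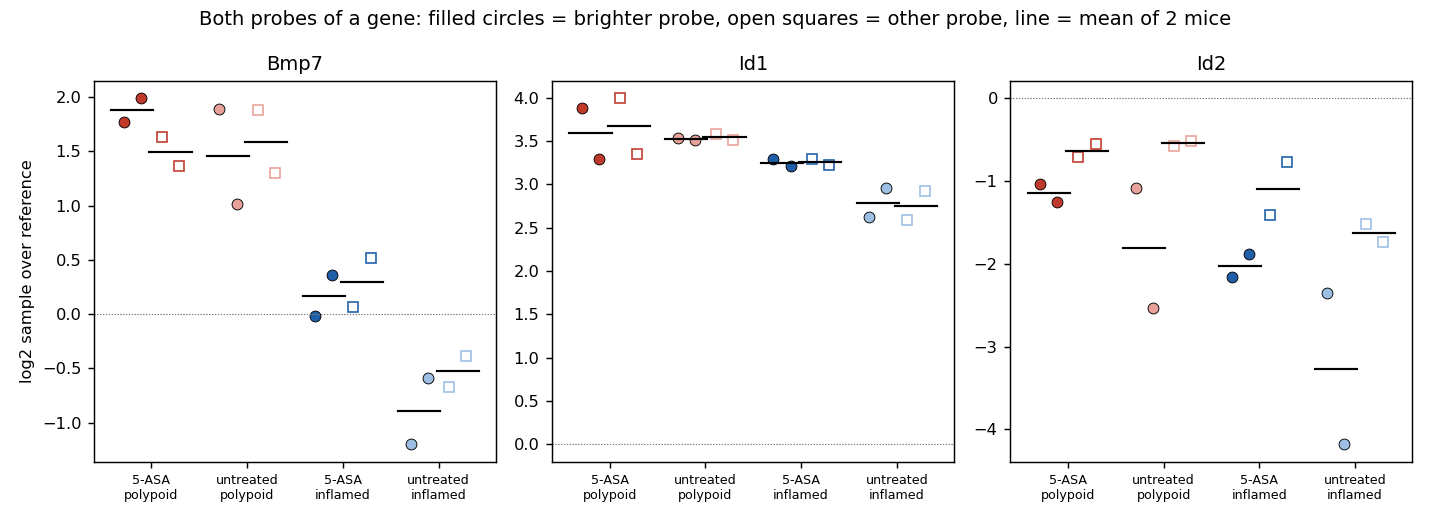
Log2 of sample over reference on each of the 2 probes of Bmp7, Id1 and Id2, with circles for the brighter probe and squares for the other and lines at means of 2 mice. On both probes of Bmp7, Id1 and Id2 the polypoid groups have higher means than the inflamed groups. Untreated polypoid replicate 2 reads -2.54 on the brighter Id2 probe and -0.51 on the other.

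Of the inhibitory Smads, Smad7, which blocks both TGF-beta and BMP receptors, was at 2.27 and 1.90 in 5-ASA polyps and 2.79 and 1.34 in untreated polyps, against 1.73 and 2.02 in 5-ASA inflamed tissue and 1.33 and 0.34 in untreated inflamed tissue. The lowest sample was an untreated inflamed mouse, and the tissues overlapped through the 5-ASA inflamed mice. The difference was 0.72 ± 0.38 (SE), with a 95% interval of -0.19 to 1.64 and an adjusted p of 0.32. It was 0.36 without untreated polypoid replicate 1 and 1.09 without replicate 2 of that group. Smad6, which acts mainly on BMP receptors, varied least of the 8 genes, from 0.34 to 0.92. It was at 0.36 and 0.39 in 5-ASA polyps and 0.34 and 0.80 in untreated polyps, against 0.40 and 0.92 in 5-ASA inflamed tissue and 0.41 and 0.54 in untreated inflamed tissue. The difference was -0.09 ± 0.16 (SE), with a 95% interval of -0.49 to 0.31. The Smad6 probe was dim, with signals of 105 to 209 units, and was well above background on 3 of 4 arrays in each polypoid group.

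Across the 8 mice some of these genes varied together. Pearson's r was 0.95 between Id2 and Smad7 and 0.85 between Bmp7 and Id1, and 0.74 between Bmp7 and Id2. The lowest r was -0.77, between Bmp4 and Id2, and Id3 and Smad7 gave -0.01. The mice share a reference and fall into 4 groups, so these values describe the samples only. Those of Id2 rest on its brighter probe. That probe read -2.54 in untreated polypoid replicate 2 and -4.18 in untreated inflamed replicate 2, against -0.51 and -1.73 on the other probe. No r was computed for the other Id2 probe.

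**Figure D3:**
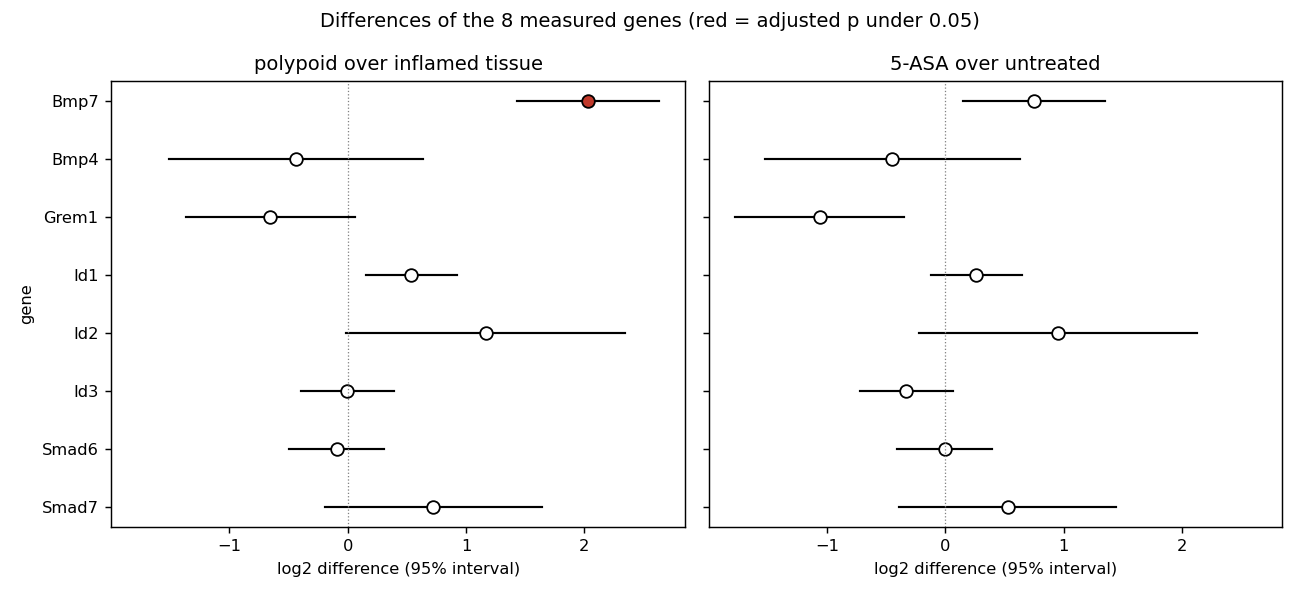
Log2 difference with its 95% interval for the 8 measured genes, for polypoid over inflamed tissue (left, both arms) and 5-ASA over untreated mice (right, both tissues). The Bmp7 interval for polyps, 1.43 to 2.63, is the one whose adjusted p passed, and in the 5-ASA panel no gene passed.

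The second comparison, 5-ASA over untreated in both tissues together, asks how levels differed with the drug. None of the 8 genes passed the test, and neither did any of the 21301 genes (0% called), although 1361 genes had an unadjusted p under 0.05 in limma. Before adjustment, 2 of the 8 genes had an interval that left out 0, Grem1 below and Bmp7 above. The median of the 8 differences was 0.13, against -0.01 over all genes.

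Grem1 had the largest of the 8 differences, at -1.06 ± 0.29 (SE), with a 95% interval of -1.78 to -0.35 and an adjusted p of 0.76. Its 4 levels in 5-ASA mice, 0.76 to 1.44, all lay below its 4 levels in untreated mice, 1.47 to 3.27. Grem1 alone of the 8 genes had groups that did not overlap here, and 1.73% of all genes did so. The gap was small beside the difference between dyes. The nearest untreated mouse, untreated polypoid replicate 2, read 1.23 in Cy3 and 1.71 in Cy5. The nearest 5-ASA mouse, treated inflamed replicate 2, had only a Cy3 array, which read 1.41. The arms thus overlapped on Cy3 arrays, though not on Cy5 arrays. The Grem1 mean was 1.21 ± 0.31 in 5-ASA mice and 2.28 ± 0.75 in untreated mice (SD, n = 4 each). By tissue the difference was -0.82 ± 0.42 (SE) in polyps and -1.31 ± 0.42 (SE) in inflamed tissue, and the difference between these was 0.49 ± 0.59 (SE), with an adjusted p of 0.95.

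Sessions that held both arms allowed the Grem1 difference to be read from 1 mouse against 1. It was -1.88 in inflamed tissue of the first session, and -0.93 and -0.70 in polyps of the second and the third. All 3 had to be negative, since the Grem1 levels of the arms did not overlap. Their signs are thus no separate check of the Grem1 difference. Smooth muscle markers were also lower in inflamed tissue of 5-ASA mice. Their mean was 0.62 and 0.93 in 5-ASA polyps and 1.04 and 0.68 in untreated polyps, against 1.21 and 1.50 in 5-ASA inflamed tissue and 3.38 and 2.25 in untreated inflamed tissue. All 10 of them were lower in 5-ASA mice on average, with none passing the test. The mean of 8 B and plasma cell markers was 0.40 and 0.33 in 5-ASA polyps and 1.57 and 1.65 in untreated polyps, against 1.89 and 1.47 in 5-ASA inflamed tissue and 3.22 and 1.72 in untreated inflamed tissue. Of these markers 7 of 8 were lower in 5-ASA mice, with a median difference of -0.81, against -0.73 for smooth muscle, and 9 of 9 T cell markers were lower, with a median of -0.13. None of them passed the test. The mean of 10 fibroblast markers was -0.76 to -0.11 in 5-ASA mice and -0.85 to -0.03 in untreated mice. Their part in the Grem1 difference was not tested.

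**Figure D4:**
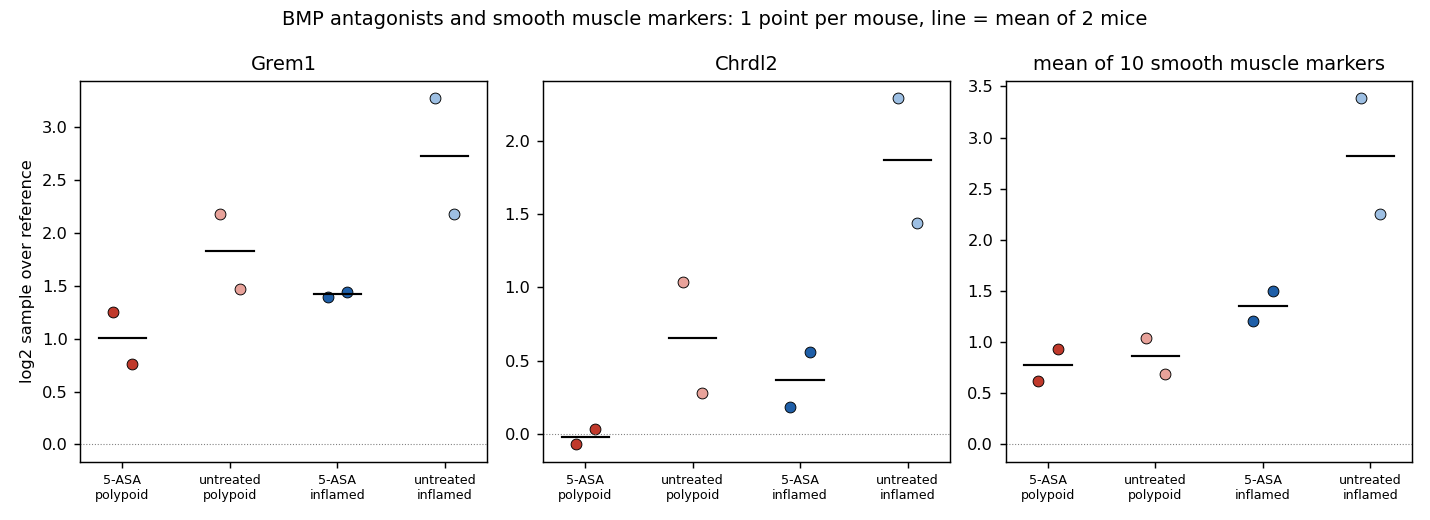
Log2 of sample over reference for Grem1, for Chrdl2 and for the mean of 10 smooth muscle markers, 1 point per mouse with a line at the mean of 2 mice. Grem1 reads 0.76 to 1.44 in 5-ASA mice and 1.47 to 3.27 in untreated mice, and untreated inflamed tissue has the highest mean in all 3 panels. Chrdl2 entered the fit through that group alone, and some of its arrays in each other group were not well above background.

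Bmp7 was 0.75 ± 0.25 (SE) higher in 5-ASA mice, with a 95% interval of 0.15 to 1.35 and an adjusted p of 0.77. The difference was 1.07 ± 0.35 (SE) in inflamed tissue and 0.43 ± 0.35 (SE) in polyps. The other Bmp7 probe gave 0.36 ± 0.18 (SE) for both tissues, 0.82 ± 0.26 (SE) in inflamed tissue and -0.09 ± 0.26 (SE) in polyps, so the sign in polyps depends on the probe. Within sessions the values of the brighter probe were 1.19 in inflamed tissue and -0.12 and 0.97 in polyps. Id2 was 0.95 ± 0.48 (SE) higher on its brighter probe and 0.22 ± 0.16 (SE) on the other, so its size depends on the probe. Smad7 was 0.53 ± 0.38 (SE) higher, and 0.17 without untreated polypoid replicate 2. Id1 was 0.26 ± 0.16 (SE) higher, and 0.12 without treated polypoid replicate 1. Id3 differed by -0.33 ± 0.16 (SE), Bmp4 by -0.45 ± 0.44 (SE) and Smad6 by -0.01 ± 0.16 (SE). Adjusted p was 0.79 or more for Id2, Smad7, Id1, Id3, Bmp4 and Smad6, from Id3 at 0.79 to Smad6 at 1.

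The third question was whether the 5-ASA difference depended on tissue. No gene on the array passed that test (0% called, with 1273 at an unadjusted p under 0.05), and none of the 8 genes did. Values are given for Id3, Smad7 and Bmp7. For Id3 the 5-ASA difference was -0.72 ± 0.23 (SE) in polyps and 0.06 ± 0.23 (SE) in inflamed tissue. Their difference was -0.78 ± 0.32 (SE), with an adjusted p of 0.84 in limma. The dyes disagreed for Id3, since treated polypoid replicate 2 read -0.65 in Cy3 and 0.09 in Cy5. Untreated polyps read 0.69 and 0.33 in Cy3, and 0.74 and 0.77 in Cy5. For Smad7 the 5-ASA difference was 0.02 ± 0.53 (SE) in polyps and 1.04 ± 0.53 (SE) in inflamed tissue. Their difference was -1.02 ± 0.75 (SE), with an adjusted p of 0.93 in limma. For Bmp7 the difference of differences was -0.64 ± 0.49 (SE) on the brighter probe, with an adjusted p of 0.93, and -0.91 ± 0.37 (SE) on the other, with an adjusted p of 0.86. In each tissue alone 0% of genes were called for 5-ASA, with 1655 genes in polyps and 934 in inflamed tissue at an unadjusted p under 0.05.

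The genes most like Bmp7, Id2, Smad7 and Grem1 over the 8 mice were taken by Pearson's r among 21299 genes. For Bmp7 they were Cep76 (0.98) and Clcn3 (0.97), both higher in polyps, and the array's entry NP382146 (0.97). For Id2, on its brighter probe alone, they were Cenpj and Naa30 (both 0.98) and the entry NAP108144-1 (0.98). For Smad7 they were the entry NAP028864-1 (0.98), Mtx2 (0.98) and Fzd1 (0.97). For Grem1 they were Rab30 (0.97), Chrdl2 (0.96) and Plscr2 (0.96). Chrdl2, chordin-like 2, is another secreted BMP antagonist. It read -0.07 and 0.03 in 5-ASA polyps and 1.03 and 0.28 in untreated polyps, against 0.18 and 0.56 in 5-ASA inflamed tissue and 2.29 and 1.44 in untreated inflamed tissue. The Chrdl2 probe entered the fit through untreated inflamed tissue alone. It was well above background on 2 of 4 arrays of 5-ASA polyps, 3 of 4 of untreated polyps, 1 of 3 of 5-ASA inflamed tissue and 4 of 4 of untreated inflamed tissue. With 8 mice in 4 groups and 21299 genes, these r values are given as a description only, and that of Chrdl2 rests partly on readings not well above background.

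The rest of the pathway was described through 8 lists with 83 genes, of which 71 were measured. Between polypoid and inflamed tissue 6 rose and 1 fell, 9.86% of those measured, against 5.94% of all genes, or 3.97% rising and 1.97% falling. Their median difference was 0.12. Among ligands, 2 of 9 TGF-beta and activin ligands rose, both of them activin subunits. Inhba was at 1.48 and 1.85 in 5-ASA polyps and 1.64 and 0.89 in untreated polyps, against -0.91 and -0.01 in 5-ASA inflamed tissue and -0.71 and -0.82 in untreated inflamed tissue. All 4 polypoid samples lay above all inflamed ones, and the probe was well above background on 3 of 4 untreated inflamed arrays. The Inhba difference was 2.08 ± 0.26 (SE), with an adjusted p of 0.014 in limma. Inhbb rose by 2.15 ± 0.26 (SE), with an adjusted p of 0.013, but a second Inhbb probe gave -0.79 ± 0.85 (SE). By arm the difference was 3.17 ± 0.36 (SE) in 5-ASA mice and 1.14 ± 0.36 (SE) in untreated mice. Between the untreated mice of session 3, 1 per tissue, the Inhbb difference was 0.45.

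Secreted antagonists other than Grem1 gave 1 call in 10. It was Fst, follistatin, which binds activins, with a difference of 1.22 ± 0.25 (SE) and an adjusted p of 0.048. Its probe entered the fit through the polypoid groups, where all 8 arrays were well above background, against 3 of 7 inflamed arrays, so the size of the difference is uncertain. Fst is 1 of the 6 genes counted above as higher. It was lost in 14 of 18 alternatives. Bambi, a decoy receptor without a kinase domain, rose by 2.54 ± 0.34 (SE), 1 call among 13 receptors and co-receptors, with an adjusted p of 0.017. It was at 1.75 and 1.44 in 5-ASA polyps and 1.01 and 2.13 in untreated polyps, against -1.12 and -0.29 in 5-ASA inflamed tissue and -0.79 and -1.61 in untreated inflamed tissue. The dimmer Bambi probe gave 0.01 ± 0.10 (SE), so the probes disagree.

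Of 6 intracellular inhibitors 1 rose, Tgif2, a homeodomain repressor that binds Smads, by 1.77 ± 0.13 (SE), with an adjusted p of 0.0043. Tgif2 was at -0.75 and -0.79 in 5-ASA polyps and -1.57 and -1.39 in untreated polyps, against -3.20 and -2.74 in 5-ASA inflamed tissue and -2.80 and -2.86 in untreated inflamed tissue. All 6 inhibitors had positive differences, as did 43 of the 71 pathway genes measured. Those other than Tgif2 did not pass and ran from 0.12 (Ski) to 0.70 (Smurf1). The inhibitory Smads, which are outside this list, differed by -0.09 (Smad6) and 0.72 (Smad7), and neither passed. Of 8 genes for TGF-beta binding and release, Itgb8, an integrin subunit that releases latent TGF-beta, rose by 0.71 ± 0.12 (SE), with an adjusted p of 0.030, and Ltbp4, a latent TGF-beta binding protein, fell by 1.13 on the log2 scale (SE 0.16), with an adjusted p of 0.019. The 3 other Itgb8 probes ranged from -0.39 to 1.95. In 5-ASA mice, where no session held both tissues, the Itgb8 difference was 1.19 ± 0.17 (SE). In untreated mice the Itgb8 difference was 0.23 ± 0.17 (SE). Its call was lost in 7 of 19 alternatives, that of Ltbp4 in 5 of 19 and that of Tgif2 in 1 of 19. The call of Bambi was lost in 4 of 19, that of Inhbb in 3 of 19 and that of Inhba in 3 of 18.

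The remaining 3 lists gave no call. The gene with the smallest p was Smad3, a TGF-beta transducer, among 6 Smads (0.61 ± 0.14 SE, adjusted p = 0.057), Bmp8b among 9 other BMP ligands (1.24 ± 0.42 SE, adjusted p = 0.15) and Ccn2, connective tissue growth factor, among 10 target genes (0.66 ± 0.21 SE, adjusted p = 0.12). A second Smad3 probe gave 0.71 ± 0.14 (SE), with an adjusted p of 0.045. With session as a block, the fit with little power, none of the 71 genes was called. Without treated inflamed replicate 1 the count was 1 in place of 7, and it was 3 without treated polypoid replicate 1, 3 without replicate 2 of that group and 4 without treated inflamed replicate 2. In 5-ASA over untreated 0 of the 71 genes passed, with 44 positive and 27 negative differences.

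**Figure D5:**
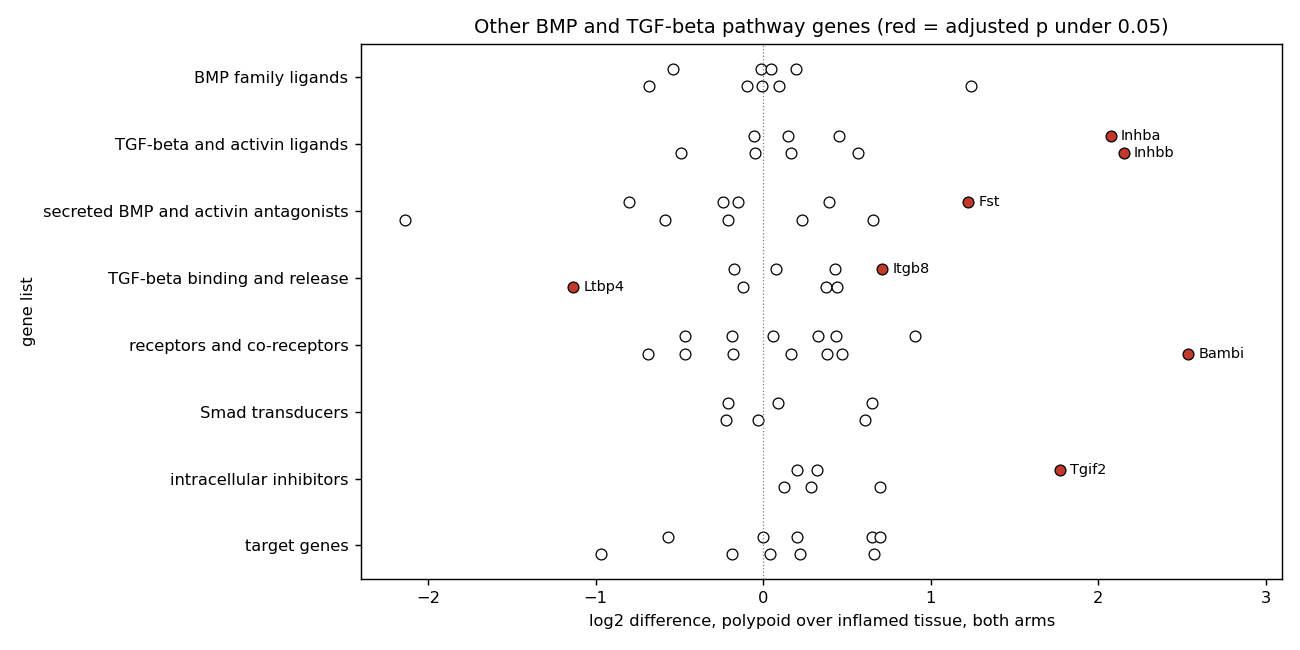
Log2 difference between polypoid and inflamed tissue, both arms, for the 71 measured genes of 8 pathway lists, 1 point per gene, with red for the genes that passed. The 6 genes that rose lie between 0.71 (Itgb8) and 2.54 (Bambi), and Ltbp4 lies at -1.13.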

How the data were processed

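The 15 arrays came from 8 mice, 7 of which had a dye-swapped pair, and the single array of treated inflamed replicate 2 carried the sample in Cy3. Per the file headers, the deposited scanner files hold intensity values per spot and channel, read by Agilent Feature Extraction 9.1.1.1, a tool the submitters' processing notes also name. The log10 ratio of red over green, per the file headers, served only to check directions. The deposited value table, an alternative, holds log2 of sample over reference with Cy3 arrays already turned, since its slope on that ratio was positive on Cy5 and negative on Cy3 arrays (3.14 to 3.22 in size, column medians -0.012 to 0.031). How the authors normalised it is not given in the sources used here.

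Values were computed with limma 3.58.1 and statmod 1.5.0 (R 4.3.3). The steps were normexp background correction (offset 50), loess within each array, turning of the Cy3 arrays, and a fit of mouse plus dye that left 1 value per mouse. A probe was kept if at least 1 group had it well above background on all its arrays, and the brightest kept probe stood for its gene. The 4 groups were fitted in limma with pooled spread (4 residual degrees of freedom, 2.14 prior), with Benjamini-Hochberg adjustment over all 21301 genes, of which 2 lacked a value in 1 mouse. The fit was tested on simulated data.

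Replicate numbers came from the titles alone and mark no shared animal or litter, so they were not taken as pairing. With 2 mice per group, the number of arrays limits the precision. The 10 genes, the pathway and marker lists, the tests and the alternatives were chosen with earlier results of these data known. Named pathway genes were those that passed in either main comparison, plus the gene with the smallest p of a list without a call. Chrdl2 was named by its likeness to Grem1. Gene names and promoter windows came from RefSeq tables (GRCm38.p6).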

Additional observations from a re-analysis of the deposited data

Results flagged for a closer look

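In 3 genes 1 of the 4 polypoid samples stood apart by Dixon's ratio, the gap to the nearest sample divided by the range, at the 95% critical value for 4 samples. For Smad3 the ratio was 0.966, from treated polypoid replicate 1 at 0.44 against 0.08 to 0.09 in the other 3. For Smad6 it was 0.878, from untreated polypoid replicate 2 at 0.80 against 0.34 to 0.39. For Id2 it was 0.858, from untreated polypoid replicate 2 at -2.54 on the brighter probe against -1.25 to -1.04, while the other Id2 probe read -0.51 in the same mouse. Chance alone marks about 1 in 20 such groups. Each group pooled the 2 arms, and the number of groups searched is not stated here, so no excess over chance is claimed.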

How the results depend on the processing

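Bmp7 between tissues kept its direction in all 20 alternatives (1.50 to 2.25) and its call in 17. Id1, Id2, Smad7 and Grem1 kept their direction between tissues, at sizes down to 0.12 for Id1 and -0.12 for Grem1. Bmp7, Grem1, Id1, Id2, Id3 and Smad7 kept theirs for 5-ASA over both tissues. In that comparison 0 of the 8 genes was called in any alternative. The cause of the changes below was not tested. Scan session as a block left few degrees of freedom, so its counts had little power. With it the counts called between tissues were 0 genes, 0 of the 8 and 0 pathway genes over both arms. They were 0 genes in 5-ASA mice and 0 in untreated mice. The tissue differences were then 0.062 for Smad6 and -0.35 for Bmp8b. The scanner software's processed signals gave 1088 genes in 5-ASA mice and 118 in untreated mice, 1 of the 8 (Bmp7) in each, and 1 gene for 5-ASA in polyps. The deposited value table gave 2 of the 8 genes over both arms, 419 genes in 5-ASA mice and 22 in untreated mice. Without background correction Id3 was at 0.0063 between tissues. Without the brightness filter 11 genes were called in untreated mice. Array quality weights, equal within each group here, gave 1669 genes and 1 of the 8 in 5-ASA mice and 0 genes in untreated mice.

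With the replicate block 11 pathway genes were called over both arms, 1088 genes in 5-ASA mice and 17 in untreated mice, while deviations of same-numbered mice correlated at 0.03 to 0.36. Leaving out 1 mouse at a time gave, over both arms, 125 to 1325 genes, 0 to 1 of the 8 and 1 to 8 pathway genes. In 5-ASA mice it gave 0 to 893 genes and 0 to 1 of the 8, and in untreated mice 0 to 12 genes. The ranges that crossed 0 were -0.93 to 0.054 for Bmp4, -0.14 to 0.13 for Id3 and -0.22 to 0.037 for Smad6 between tissues, -0.94 to 0.044 for Bmp4 and -0.14 to 0.12 for Smad6 for 5-ASA, and -0.060 to 1.04 for Grem1 in the difference of the 5-ASA effect. Other wide ranges were 0.36 to 1.09 for Smad7, 0.71 to 1.62 for Id2 and -0.93 to -0.38 for Grem1 between tissues, and 0.17 to 0.89 for Smad7, 0.12 to 0.41 for Id1 and 0.50 to 1.41 for Id2 for 5-ASA, and -1.75 to -0.29 for Smad7 in the difference of the 5-ASA effect. The other probe of Bmp7, Id1 and Id2, chosen after seeing the data, changed no call. Smad6 had no value under the stricter brightness filter. Signal near background limits Smad6, Bmp2 and Tgfb1, and saturation limits Id1.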
